A study of Mus musculus with 2 samples.

Results

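Lysosomal hydrolases and membrane proteins were examined in hippocampus of aged mice, as a module of 39 genes out of the 55536 gene rows of the deposited tables. The members were chosen by name, with earlier results of these data known. They are 9 peptidases, 13 enzymes that break down glycans, 8 lipid enzymes and lipid cofactors, 8 membrane proteins and progranulin. All 39 symbols matched a gene and its transcripts, of which the annotation lists 222. The tissue came from female B6CASTF1/J mice, the first-generation cross of the inbred strains C57BL/6J and CAST/EiJ, at 18 to 20 months of age. The series holds 1 group of 2 libraries (replicates 1 and 2), each made from 300 ng of total RNA with ERCC spike-in RNAs added. There was no treatment, no second genotype and no younger group, so nothing here is a comparison of ages. The labels number the libraries as biological replicates, each with its own biosample label, and give both the same donor label. They do not say whether the tissue came from different animals, so differences describe the 2 libraries only and may be technical.

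The lysosome is the acidic compartment in which cells take apart proteins, glycans and lipids delivered by endocytosis and autophagy. Its enzymes are made in the endoplasmic reticulum, tagged or captured by sorting receptors and activated at low pH, while glycosylated membrane proteins line the compartment and transporters and channels let the products and ions out. Loss of a single member of this set often gives a storage disease, and many of these diseases affect the brain. In brain, neurons, astrocytes, microglia and oligodendrocytes all carry lysosomes, and microglia, the resident phagocytes, are rich in several cathepsins.

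Replicate 1 held 35358099 gene-assigned counts and replicate 2 held 36307276. The tissue label was checked against 6 markers of excitatory neurons, among them Camk2a and Slc17a7, which summed to 2575 TPM and 2422 TPM. TPM is an abundance per length that sums to 1000000 in a library, and values are from tables in the layout that RSEM writes unless another is named. None of the markers in 11 cell type lists stood at 0 in either library, and the choroid plexus list was the lowest, with 7 markers that summed to 11.8 TPM and 8.18 TPM. Here and below, where a pair of values is given, that of replicate 1 comes first. In whole tissue, a lower value can mean fewer cells of a type or less RNA per cell, and these cannot be told apart.

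Every one of the 39 lysosomal genes was detected, which means 1 TPM or more in each library, beside 57.8% of all 22015 protein-coding nuclear genes. A level of 10 TPM or more in each library was reached by 30 members, beside 34.6% of those genes. Because the choice of members was not blind to these data, the shares only describe the list. The median member stood at 25.1 TPM and 22.4 TPM (23.8 ± 1.87, SD, n = 2). Over all protein-coding nuclear genes of mean TPM 1 or more the median was 14.3 TPM and 13.8 TPM. Levels ranged 229-fold within the module, from Psap at a mean of 590.0 TPM to Sgsh at 2.58 TPM. Psap alone held 30.5% of the module's summed TPM in replicate 1 and 30.01% in replicate 2, and the 5 most abundant members held 59.5% and 59.7%. The module took 0.360% of gene-assigned counts in replicate 1 (exact Clopper-Pearson 95% interval 0.358 to 0.362) and 0.364% in replicate 2 (0.362 to 0.366). These intervals cover counting error only.

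**Figure D1:**
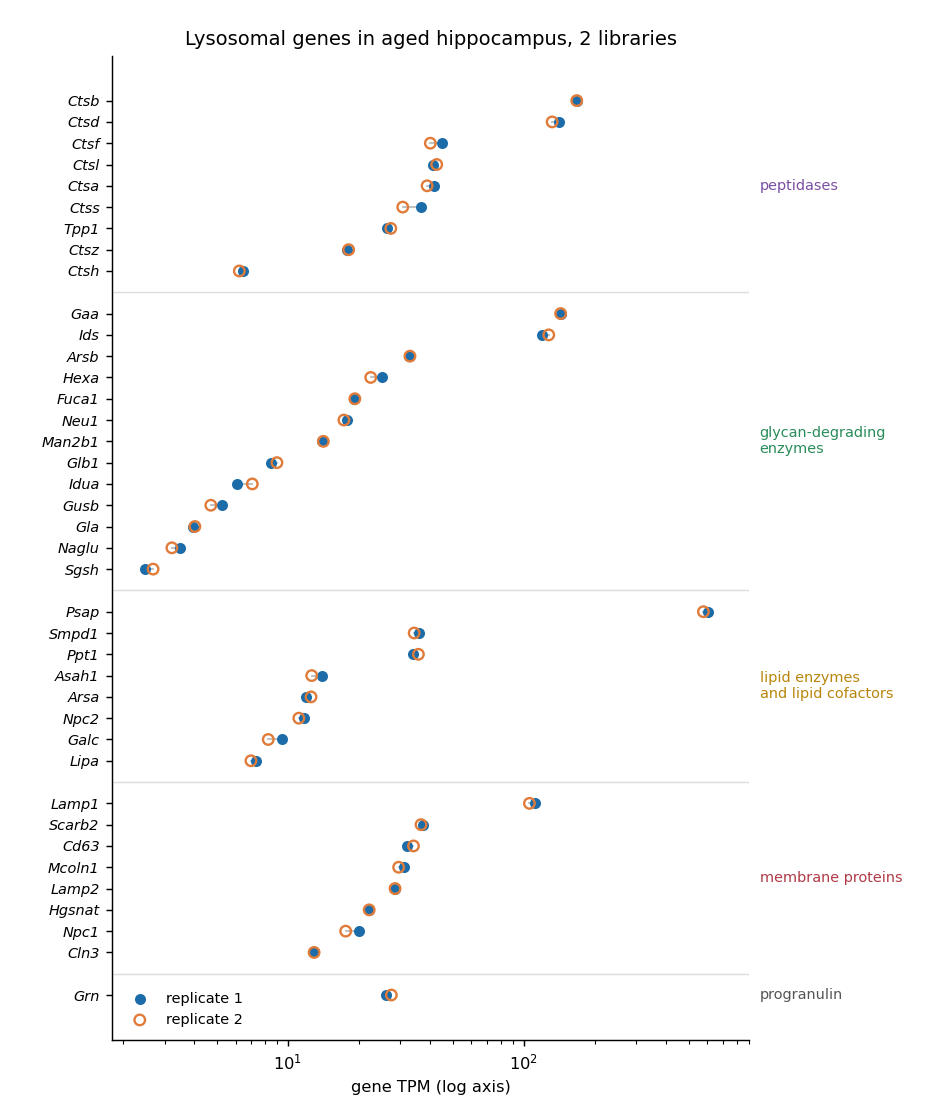
Gene TPM (log axis) of each of the 39 lysosomal genes, ordered by level within class, with a filled point for replicate 1 and an open point for replicate 2. Psap stands alone near 590.0 TPM, 5 further genes lie above 100 TPM, and the glycan-degrading enzymes spread down to Sgsh at 2.58 TPM.

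Of the 38 neighbouring pairs in the order of mean levels, 23 were apart in the sense that both library values of the higher gene exceeded both of the lower, and 15 overlapped. Psap, Ctsb, Gaa, Ctsd, Ids and Lamp1 led in that order with no overlap between neighbours, and they were the 6 members within the 1000 most abundant protein-coding nuclear genes. This order is of gene TPM in the RSEM layout. In the kallisto layout, described further on, Ids (176.9 TPM and 188.9 TPM) and Lamp1 (179.5 TPM and 179.1 TPM) overlapped. The Ctsb level includes a transcript with a retained intron, Ctsb-202, at 93.4 TPM and 95.5 TPM. The coding Ctsb-201 was at 74.45 TPM and 71.4 TPM. Among the genes that could not be ordered were Ctsf, Ctsl and Ctsa, which followed each other with overlapping library values, and the run from Smpd1 over Ppt1, Ctss and Cd63 to Arsb.

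The peptidases had the highest class median, at 41.4 TPM and 38.9 TPM (40.1 ± 1.72, SD, n = 2). Ctsb (chromosome 14, 63122462 to 63145923, plus strand), which encodes the cysteine protease cathepsin B, led with 169 TPM and 168 TPM. Ctsd (chromosome 7, 142375911 to 142388038, minus strand), the aspartic protease cathepsin D, measured 141 TPM and 132 TPM. The next peptidase, Ctsf, was at 45.0 TPM and 40.2 TPM, and the mean of Ctsd was 3.20 times that of Ctsf. Cathepsin F is a further cysteine protease. Close to it lay Ctsl, cathepsin L, at 41.4 TPM and 42.7 TPM, and Ctsa, the serine carboxypeptidase that also protects beta-galactosidase and neuraminidase, at 41.5 TPM and 38.9 TPM. Ctss, cathepsin S, a protease typical of antigen-presenting cells and microglia, stood at 36.6 TPM and 30.7 TPM, lower in replicate 2. Tpp1, the tripeptidyl peptidase lost in a form of neuronal ceroid lipofuscinosis, measured 26.3 TPM and 27.3 TPM. Ctsz followed with 17.8 TPM and 18.1 TPM. The lowest was Ctsh, an aminopeptidase of the cathepsin family, at 6.42 TPM and 6.22 TPM, and the mean of Ctsb was 26.6 times that of Ctsh.

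Glycan-degrading enzymes had a median of 13.9 TPM and 14.1 TPM (14.0 ± 0.134, SD, n = 2). A pair of them stood far above the others. Gaa (chromosome 11, 119267887 to 119285454, plus strand), acid alpha-glucosidase, which degrades lysosomal glycogen, measured 143 TPM in each library. The second, Ids (chromosome X, 70343069 to 70365084, minus strand), iduronate sulfatase, which acts early in the breakdown of heparan and dermatan sulfate, measured 119 TPM and 128 TPM. The third, Arsb, the sulfatase for dermatan and chondroitin sulfate, was at 32.5 TPM and 32.9 TPM.

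Below these came Hexa, the alpha subunit of beta-hexosaminidase, at 25.1 TPM and 22.4 TPM, and Fuca1, alpha-fucosidase, at 19.0 TPM and 19.2 TPM. Neu1 (sialidase), Man2b1 (alpha-mannosidase) and Glb1 (beta-galactosidase) had means of 17.6, 14.0 and 8.71 TPM. The 5 lowest members of the whole module other than Ctsh, namely Idua, Gusb, Gla, Naglu and Sgsh, all belonged to this class. Sgsh, heparan N-sulfatase, stood at 2.47 TPM and 2.68 TPM, from 239 and 246 counts. Enzymes that act in turn on heparan sulfate differed widely in RNA level: Ids had a mean of 123 TPM, the transferase gene Hgsnat 22.1 TPM, Idua 6.56 TPM, Naglu 3.35 TPM and Sgsh 2.58 TPM. Gla and Ids lie on chromosome X, as does Lamp2.

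Lipid enzymes and cofactors had a median of 13.0 TPM and 12.6 TPM (12.8 ± 0.290, SD, n = 2), the lowest of the 4 larger classes in this table, although the class held the module's top gene. In the kallisto-layout table, described further on, the order of the last 2 classes turned, with medians of 24.3 TPM for lipid genes and 21.7 TPM for glycan-degrading enzymes. Psap (chromosome 10, 60277627 to 60302597, plus strand) encodes prosaposin, the precursor of the saposins that present sphingolipids to their hydrolases. It measured 602 TPM and 578 TPM, from 39087 and 40143 counts, and ranked at place 35 of 22015 protein-coding nuclear genes. The other members of the class were far lower. Smpd1, acid sphingomyelinase, was at 36.1 TPM and 34.3 TPM. Ppt1, palmitoyl-protein thioesterase, was at 34.05 TPM and 35.74 TPM. Asah1 (acid ceramidase) had a mean of 13.3 TPM, Arsa (arylsulfatase A, which acts on sulfatide) 12.2 TPM and Galc (galactosylceramidase) 8.85 TPM. Npc2, the soluble cholesterol carrier, measured 11.7 TPM and 11.1 TPM. Lipa, acid lipase, was the lowest of the class, at 7.35 TPM and 6.97 TPM.

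Most Psap RNA was assigned to the transcript Psap-205, which took 78.0% of the gene's TPM in replicate 1 and 78.9% in replicate 2. Psap-203 took 14.3% and 9.74%, and Psap-202 took 7.30% and 11.1%. Psap-205 holds a coding exon of 9 bases (chromosome 10, 60297537 to 60297545, GRCm38) that is absent from Psap-202, and this small exon lies in the part of the gene that codes for saposin B. The stretch is printed for both forms because the exon tells these forms apart. Capitals mark the exon, and both are reference sequence from the GENCODE M21 transcripts.
Psap-205: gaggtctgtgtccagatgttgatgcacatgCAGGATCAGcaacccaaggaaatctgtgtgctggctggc
Psap-202: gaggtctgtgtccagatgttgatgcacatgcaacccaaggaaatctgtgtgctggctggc
The second transcript table, in the layout that kallisto writes, gave Psap-205 a share of 74.2% in replicate 1 and 74.6% in replicate 2. The leading form of Psap was thus the same in both libraries and both tables.

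The membrane proteins had a median of 29.8 TPM and 29.0 TPM (29.4 ± 0.598, SD, n = 2), and all 8 reached 10 TPM. Lamp1 (chromosome 8, 13159161 to 13175338, plus strand), a heavily glycosylated lining protein, led with 111 TPM and 106 TPM. The others had means from 37.1 TPM for Scarb2 down to 12.9 TPM for Cln3. Scarb2 encodes LIMP-2, the receptor that carries glucocerebrosidase to lysosomes, and measured 37.4 TPM and 36.7 TPM. Cd63, a tetraspanin of late endosomes and lysosomes, measured 32.1 TPM and 34.1 TPM. Mcoln1, a cation channel that releases calcium, and Hgsnat, the acetyltransferase for heparan sulfate, had means of 30.3 and 22.1 TPM. Npc1, which exports cholesterol together with Npc2, measured 20.0 TPM and 17.6 TPM, and its partner Npc2 was lower in each library. Cln3, lost in juvenile neuronal ceroid lipofuscinosis, was the lowest at 12.9 TPM in each library.

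Lamp2 (chromosome X, 38401357 to 38456454, minus strand) is the second lining protein and measured 28.4 TPM in each library, and the mean of Lamp1 was 3.81 times that of Lamp2. Its RNA was shared among 3 transcripts with alternative last coding exons, known as the 2B, 2C and 2A forms. Only the A form serves as the receptor of chaperone-mediated autophagy. Lamp2-202, the B form, took 41.0% of the gene's TPM in each library (41.0 ± 0.0212, SD, n = 2). Lamp2-203, the C form, took 32.0% in replicate 1 and 29.9% in replicate 2. Lamp2-201, the A form, took 23.75% and 25.96%. The order B, C, A held in both libraries and both tables, with the kallisto layout giving 38.6% and 40.8% to B, 29.5% and 28.7% to C, and 23.5% and 23.7% to A. In counts the order was the same, with 1041 and 1115 counts for B, 483 in each library for C, and 288 and 336 for A.

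The 3 Lamp2 forms share 1108 coding bases and differ in the last 137, 140 and 137. These last exons code for the membrane span and the short cytosolic tail and are printed because they are what tells the forms apart. Capitals mark the last 30 coding bases before the stop codon, which code for the end of the tail. Sequences are given 5′ to 3′ on the minus strand of chromosome X.
Lamp2-202: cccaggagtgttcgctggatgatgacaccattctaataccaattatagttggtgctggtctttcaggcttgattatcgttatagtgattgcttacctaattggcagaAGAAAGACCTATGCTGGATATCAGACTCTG
Lamp2-203: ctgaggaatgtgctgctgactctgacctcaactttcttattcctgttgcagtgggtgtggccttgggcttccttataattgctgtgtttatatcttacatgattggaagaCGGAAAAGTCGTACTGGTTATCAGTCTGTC
Lamp2-201: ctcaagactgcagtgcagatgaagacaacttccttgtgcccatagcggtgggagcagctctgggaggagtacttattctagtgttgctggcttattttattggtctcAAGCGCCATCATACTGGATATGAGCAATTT
Counted from the 3′ end without gaps, B and C were identical at 52.6% of places, B and A at 53.3%, and C and A at 51.1%. In the last 30 bases, B and C shared 60%, C and A 50% and B and A 46.7%.

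Progranulin, the secreted and lysosomal precursor of granulin peptides whose loss causes frontotemporal dementia, stands for itself in the module. Grn measured 26.1 TPM and 27.4 TPM, close to Tpp1, with which its library values overlapped.

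Members were also followed at the level of transcripts. Of 37 members with more than 1 annotated transcript, 28 had the same leading transcript by TPM in both libraries and both tables, or 75.7%, beside 67.8% of 11678 protein-coding genes counted the same way. Within the RSEM layout alone 34 of the 37 agreed between libraries, beside 89.5% of those genes, and within the kallisto layout 33 of the 37 agreed, beside 87.7%. Ctss is among the 33, although its 2 transcripts were tied at 50% in replicate 1. The transcript listed first was then taken as leader. Hexa and Ctsz have 1 transcript each. Protein-coding transcripts took a median of 90.1% of a member's TPM in the RSEM layout and 94.5% of its counts, close to 88.4% and 95.3% over all such genes.

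**Figure D2:**
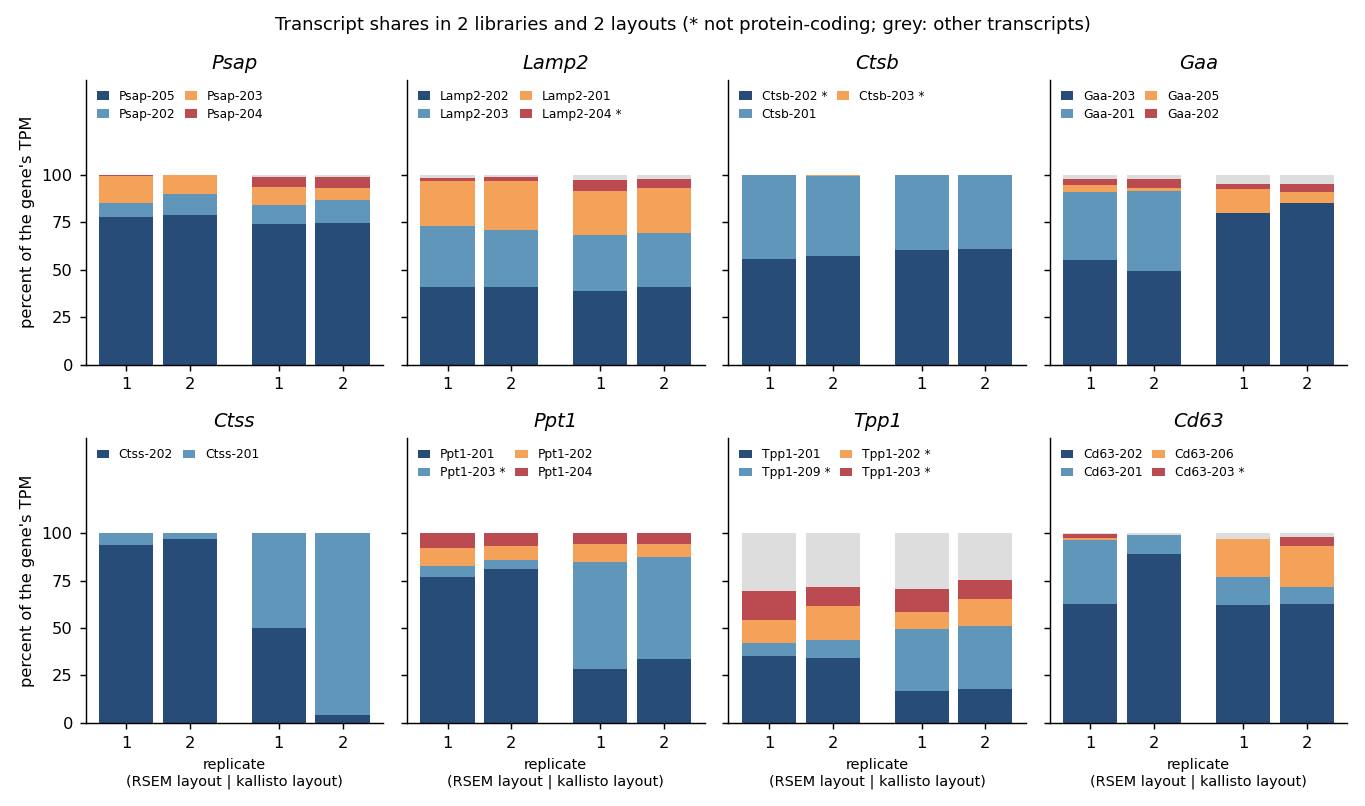
Share of each gene's TPM taken by its transcripts (percent, stacked bars), for replicates 1 and 2 in the RSEM layout (left pair) and the kallisto layout (right pair). Psap, Lamp2 and Ctsb keep their leading transcript across all 4 bars, whereas Ppt1 and Tpp1 change leaders between layouts. Ctss changes its leader between layouts in replicate 2, and its transcripts are tied in replicate 1 of the kallisto layout.

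In 3 members the leading transcript of each library in the RSEM layout was not annotated as protein-coding, namely Ctsb, Arsa and Cln3, beside 6.06% of protein-coding genes. For Ctsb this was Ctsb-202, an 801-base transcript with a retained intron. It took 55.4% of the gene's TPM in replicate 1 and 57.0% in replicate 2, and the kallisto layout gave it 60.1% and 61.0%. The coding transcript Ctsb-201, of 4743 bases, took 44.2% and 42.6%. In counts the order turned: Ctsb-201 held 8821 and 9045 counts, and Ctsb-202 held 1673 and 1828. Of the 801 bases of Ctsb-202, 710 lie in the coding sequence of Ctsb-201 and 91 in its introns.

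Arsa-201, a retained-intron transcript of 2699 bases, took 67.7% and 67.6% of Arsa TPM, and the coding Arsa-202 took 25.9% and 18.9%. The kallisto layout placed Arsa-202 first in replicate 1, at 46.3%, and Arsa-201 first in replicate 2, at 49.3%. The 2 transcripts share 2622 bases, 97.1% of Arsa-201, and only 77 bases of Arsa-201 lie in introns of Arsa-202. Cln3 has 19 annotated transcripts and rests on 299 and 327 counts. Its leader in the RSEM layout was Cln3-214 at 24% in replicate 1 and Cln3-213 at 20.6% in replicate 2, both processed transcripts of under 600 bases, whereas the coding Cln3-203 took 22.4% and 20.1%. By counts Cln3-203 led in both libraries and both tables.

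In Ppt1, Tpp1 and Ctsl the leader differed between the tables and not between the libraries. Ppt1-201, the coding form, took 77.1% in replicate 1 and 81.0% in replicate 2 of the RSEM layout but 28.4% and 33.5% of the kallisto layout. Ppt1-203, annotated as a target of nonsense-mediated decay, took 5.85% and 4.83% by the RSEM layout, against 56.5% and 53.7% by kallisto's. Ppt1-203 contains 2373 of the 2381 bases of Ppt1-201 and 200 bases of its own. For Tpp1, Tpp1-201 led the RSEM layout with 35.3% and 34.3%, and the 413-base Tpp1-209 led the kallisto layout with 32.2% and 33.2% from only 49.0 and 52.6 estimated counts. For Ctsl, Ctsl-201 took 51.0% and 47.5% in the RSEM layout, against 56.3% and 56.6% for the 834-base Ctsl-203 in the kallisto layout. Fuca1-201 led in 3 of the 4 columns, at 54.0% and 44.1% in the RSEM layout and 30.2% in replicate 2 of the kallisto layout, while the 436-base Fuca1-202 led in the other at 37.7%.

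Cathepsin S was split by the tables in opposite ways in replicate 2, and the kallisto layout gave a tie in replicate 1. Its 2 transcripts have the same length of 1355 bases, and their coding sequences differ by 3 bases (chromosome 3, 95529434 to 95529436). The stretch around them is printed with these bases in capitals.
Ctss-201: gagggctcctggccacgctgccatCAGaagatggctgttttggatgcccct
Ctss-202: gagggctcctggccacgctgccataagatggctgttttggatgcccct
In the RSEM layout Ctss-202 took 93.6% in replicate 1 and 96.6% in replicate 2. In the kallisto layout the 2 transcripts took 50% each in replicate 1, from 566 estimated counts each, and Ctss-201 took 95.8% in replicate 2. The gene's TPM in the kallisto layout was 58.2 in replicate 1 and 52.6 in replicate 2, again lower in replicate 2.

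Idua and Ctsh were split by library and rested on few counts. Idua-202 led in replicate 1, at 33.2%, and Idua-203 in replicate 2, at 31.2%, from 341 and 370 counts for the gene, and the kallisto layout gave 51.6% to Idua-202 in replicate 1 and 21.6% to Idua-203 in replicate 2. All 3022 bases of Idua-203 lie within Idua-202. Ctsh-201 took 50.03% in replicate 1 and 30.3% in replicate 2, whereas Ctsh-202, a nonsense-mediated decay transcript, took 21.9% and 49.2%, from 191 and 201 counts for the gene. The kallisto layout gave Ctsh-201 58.8% and 72.1%. The leading form thus differed between the libraries in both layouts for Idua and in the RSEM layout for Ctsh.

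Gaa and Cd63 kept their leader but not its share. Gaa-203 and Gaa-201 have the same coding sequence of 2859 bases, and every base of Gaa-201 lies within Gaa-203. The RSEM layout split them 54.9% to 36.1% in replicate 1 and 49.0% to 42.4% in replicate 2, and the kallisto layout gave Gaa-203 79.9% and 84.9% and next to none to Gaa-201. Cd63-202 took 62.4% in replicate 1 and 88.8% in replicate 2 of the RSEM layout and 62.3% and 62.4% of the kallisto layout. Cd63-201 codes for the same 714 bases. Gusb-201 took 43.8% and 80.5% in the RSEM layout and 65.3% and 78.0% in the kallisto layout, from 288 and 301 counts for the gene.

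Gene levels moved between the tables as well. The median ratio of kallisto-layout TPM to RSEM-layout TPM was 1.65 over the members and 1.67 over 12878 protein-coding genes of mean TPM 1 or more. The ratio of counts was 1.08 for both. Over 1.25-fold above the median ratio were 6 members, or 15.4%, beside 13.2% of those genes: Tpp1 at 2.61, Cln3 at 2.34, Fuca1 at 2.25, Cd63 at 2.21, Asah1 at 2.16 and Ctsl at 2.11. No member lay over 1.25-fold below it, beside 5.52% of genes. For transcripts of 1000 bases or more, the effective length in the RSEM layout, the number of places where a fragment can start, was 99 bases below the transcript length, and in the kallisto layout it was 335 bases below in replicate 1 and 333 bases below in replicate 2. Over the 6 members more than 1.25-fold above the median ratio, transcripts of under 1000 bases took a median of 50.48% of RSEM-layout TPM and 66.5% of kallisto-layout TPM. Over the other 33 they took 4.14% and 5.76%. Among the 6, the RSEM-layout share was 1.595% for Cd63 and 13.92% for Asah1. In the rest of the 6 it ran from 49.995% for Ctsl to 67.285% for Cln3. Among the 33, Ctsb had the highest such share, 56.19%, at a TPM ratio of 1.67. The 6 were picked by a high ratio, so their share of kallisto-layout TPM is not independent of that choice. Whether short transcripts account for the higher ratios was not tested.

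The 2 libraries differed little over the module. Scaled counts of replicate 2 over replicate 1 ran from 0.874 for Ctss to 1.13 for Cd63. None of the 39 members differed over 1.2-fold, beside 10.4% of the 14307 genes whose mean count reached 50. Likewise none passed 1.5-fold, beside 1.64% of genes, or 2-fold, beside 0.384%. Over 1.1-fold apart were 6 members, beside 26.4% of genes. The median log2 ratio over members was 0.02, with 24 higher in replicate 2 and 15 higher in replicate 1, and over all those genes it was 0.00. By TPM as deposited the majority turned, with 17 members higher in replicate 2 and 22 higher in replicate 1. The median size of the log2 ratio, without its sign, was 0.0551 over members and 0.0699 over all genes tested. That background reaches down to a mean count of 50, below every member, the lowest being Ctsh with 191 and 201 counts. Genes of fewer counts vary more by counting error. The fold shares and the median size were not taken over genes within the members' range of counts.

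**Figure D3:**
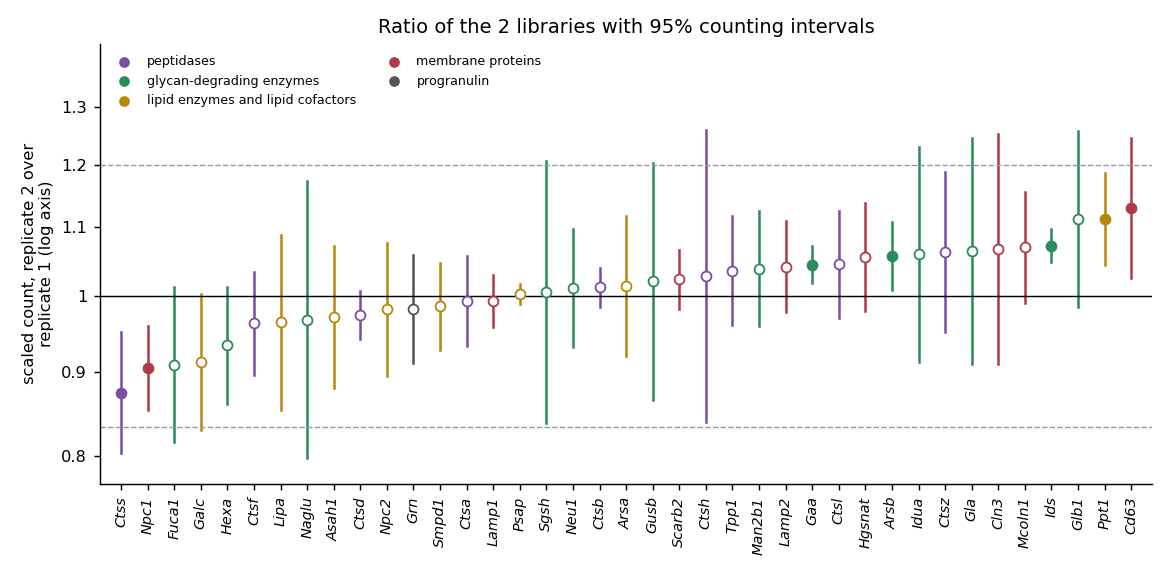
Scaled count of replicate 2 over replicate 1 (log axis) for the 39 lysosomal genes in order, coloured by class, with exact binomial 95% counting intervals as bars and dashed lines at 1.2-fold. Filled points mark the 7 genes whose interval leaves out 1, from Ctss at 0.874 to Cd63 at 1.13, and no point passes a dashed line.

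The exact 95% counting interval of the ratio left out 1 for 7 members, or 17.9%, beside 20.1% of the 14307 genes and 21.5% of those within the members' range of counts. This share is near the background. Above 1 were 5 members, beside 9.86% of genes. Cd63 had 775 counts in replicate 1 and 897 in replicate 2, a ratio of 1.13 (1.03 to 1.25). Ppt1 had 1802 and 2055 counts, a ratio of 1.11 (1.04 to 1.19). Ids had 13752 and 15105, a ratio of 1.07 (1.05 to 1.098), and Arsb and Gaa had ratios of 1.06 and 1.04. Below 1 were 2 members, beside 10.2% of genes. Ctss had 1174 and 1051 counts, a ratio of 0.874 (0.804 to 0.951), and Npc1 had 2326 and 2155, a ratio of 0.905 (0.853 to 0.960).

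By class the median log2 ratio was 0.02 for peptidases, 0.05 for glycan-degrading enzymes, -0.02 for lipid enzymes and cofactors and 0.07 for membrane proteins. Psap was close to even, at a ratio of 1.00 (0.989 to 1.02), as was Ctsb, at 1.01 (0.985 to 1.04). Sgsh also had a ratio of 1.01, but its interval (0.838 to 1.21) was too wide to call it even. By kallisto-layout counts the log2 ratio of Sgsh was -0.08. TPM and scaled counts did not always point the same way. Fuca1 had 19.0 TPM and 19.2 TPM but 710 and 661 counts, a ratio of 0.909 (0.816 to 1.01).

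Several cell type lists differed between the libraries. All 8 oligodendrocyte markers were lower in replicate 2, with summed levels of 1269 TPM and 920.5 TPM and a median log2 ratio of -0.38. All 8 markers of meningeal fibroblasts were higher in replicate 2, summing to 58.1 TPM and 96.4 TPM, and all 5 erythroid markers were higher, summing to 345 TPM and 521 TPM. The 5 mural markers summed to 47.2 TPM and 57.5 TPM but did not move together. The difference in the sum lay mostly in Vtn, at 21.75 TPM and 31.88 TPM. Rgs5 was lower in replicate 2, at 17.5 TPM and 15.6 TPM, with a ratio of 0.919 (0.859 to 0.983). By scaled counts, 3 of the 4 mural markers with enough counts were higher in replicate 2 and 1 was lower. Kcnj8, with fewer counts, was at 0.65 TPM and 0.61 TPM. The 10 microglial markers summed to 220.3 TPM and 211 TPM with a median log2 ratio of 0.08, and no interval among them left out 1. The part of these lists in the ratios of Ctss, Npc1, Cd63 and the other members was not tested.

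Further lysosomal genes, not members of the module, were read from 5 lists. The proton pump that acidifies the lumen (the V-ATPase, which also works in synaptic vesicles) was the most abundant, with a median of 128 TPM and 123 TPM over 18 subunits, all above 10 TPM. Its membrane subunit gene Atp6v0c measured 485 TPM and 461 TPM, second only to Psap among the lysosomal genes considered. Atp6v1g2, a form of the G subunit typical of neurons, was at 257 TPM and 242 TPM, and Atp6v1a, the catalytic subunit, at 238 TPM and 239 TPM. The lowest was Atp6v0e, at 19.6 TPM and 17.6 TPM. The interval of the ratio left out 1 for 3 of the 18 subunits, all above 1, the highest being Atp6v0e2 at 1.06 (1.02 to 1.09). Over all 14307 genes the interval lay above 1 for 9.86% and left out 1 for 20.1%, so this count is near the background.

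**Figure D4:**
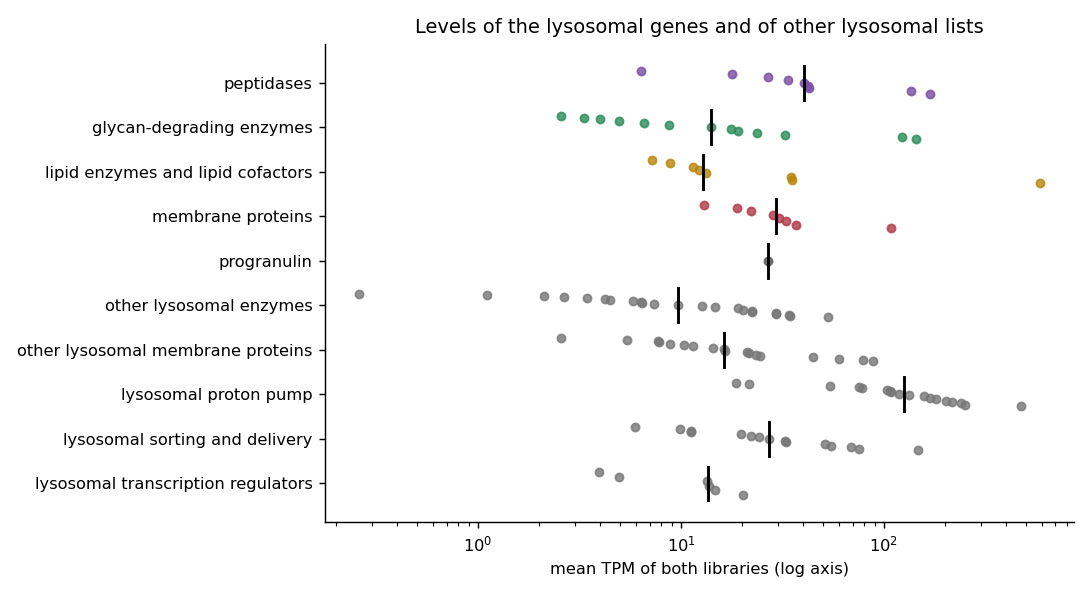
Mean TPM of both libraries (log axis) for each gene of the 5 classes of lysosomal genes (coloured) and of 5 further lysosomal lists (grey), with a black bar at each list's median. The proton pump list lies highest, with 16 of its genes above 50 TPM, and the other lysosomal enzymes reach lowest, down to Acp5 at 0.26 TPM.

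The 23 other lysosomal enzymes had a median of 10.3 TPM and 9.03 TPM. Lgmn, legumain, which activates cathepsins, measured 34.5 TPM and 34.1 TPM. Acp5, a phosphatase of osteoclasts and macrophages, was at 0.34 TPM and 0.18 TPM, from 11 and 6 counts, and had too few counts for the fold rule, as had Ctsk, the osteoclast cathepsin. Aga, aspartylglucosaminidase, with 94 and 66 counts and a ratio of 0.686 (0.493 to 0.949), was the only enzyme of this list over 1.2-fold apart and did not pass 1.5-fold.

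Among 18 other lysosomal membrane proteins the median was 17.0 TPM and 15.7 TPM. Laptm4a led at 91.8 TPM and 84.7 TPM, followed by Tmem106b, a protein linked to progranulin in frontotemporal dementia, at 80.6 TPM and 76.8 TPM, and Atp13a2, a polyamine exporter, at 63.5 TPM and 57.2 TPM. Tpcn2, a cation channel of the lysosomal membrane, was lowest, at 2.57 TPM and 2.56 TPM. None differed over 1.2-fold. Of the 15 sorting and delivery genes, Sort1, the sortilin that carries prosaposin and progranulin, led with 151 TPM and 145 TPM. Sorl1 measured 77.9 TPM and 72.1 TPM and the retromer subunit Vps29 66.0 TPM and 71.2 TPM. The mannose 6-phosphate receptors M6pr and Igf2r had means of 33.0 and 11.2 TPM. Cln6, which helps enzymes leave the endoplasmic reticulum, was lowest, at 5.44 TPM and 6.37 TPM, and with 234 and 299 counts was 1.25-fold higher in replicate 2 (1.05 to 1.49).

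The transcription factors that act on lysosomal genes were read in a list of 6 regulators, with a median of 15.2 TPM and 11.9 TPM. Of these, the factors Tfeb, Tfe3 and Mitf bind a short palindrome, the core CACGTG, within the CLEAR element of lysosomal promoters. Flcn and Fnip1, which act on these factors through nutrient sensing, had means of 20.2 and 14.7 TPM, and Zkscan3, a repressor of lysosomal genes, measured 14.9 TPM and 12.6 TPM. Tfe3 had 15.6 TPM and 11.2 TPM, Tfeb 4.54 TPM and 5.41 TPM, and Mitf, the lowest, 4.38 TPM and 3.50 TPM. In counts Tfe3 was even, with 907 and 928, a ratio of 0.999 (0.911 to 1.096). RNA of these factors says nothing of their place in the cell, by which they are known to be controlled.

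Promoter windows were searched for CACGTG, which reads the same on both strands. RefSeq windows of GRCm38.p6, from 250 bases before a start site to 50 bases after it, were at hand for 34 of the 39 members. Ctsb, Ctsh, Asah1, Npc1 and Hgsnat had none. The letters occurred in a window of 13 members, or 38.2%, beside 9.18% of 16522 protein-coding genes. They were in 4 of 7 peptidase genes searched (Ctsa, Ctsd, Ctsf and Ctsl), 5 of 13 genes of glycan-degrading enzymes (Gla, Glb1, Gaa, Naglu and Sgsh), 1 of 7 lipid genes (Arsa) and 3 of 6 membrane protein genes (Lamp1, Cln3 and Mcoln1), and not in the window of Grn. All 13 also held them within the 250 bases before a start site. Cln3 and Ctsa have more than 1 window, and in each only the window of the start site further into the gene held the core. The longer palindrome TCACGTGA, which contains the core, was in the windows of 5 members, beside 1.45% of genes, and its extension to 10 letters by G and C was in that of Cln3 alone, beside 0.490%. A match is a description of the letters and not a bound site.

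**Figure D5:**
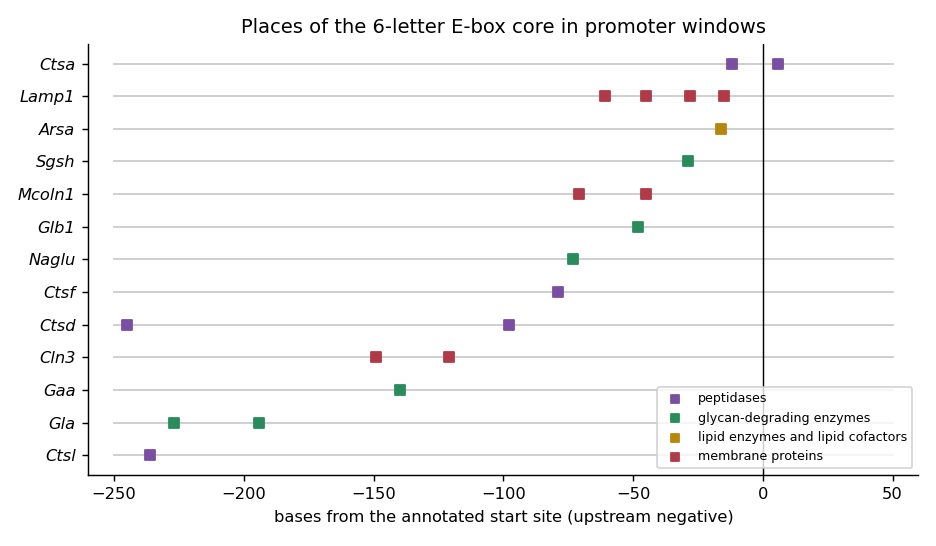
Places of the CACGTG core (squares, coloured by class) in the promoter windows of the 13 lysosomal genes that hold it, in bases from the RefSeq start site, with upstream places negative. Lamp1 holds 4, from -61 to -15, and the places of the other genes range from -245 in Ctsd to 6 in Ctsa. For Cln3 and Ctsa the start site is the one further into the gene.

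Lamp1 had 4 copies, at -61, -45, -28 and -15 from the start, the most of any member, and its promoter is printed with that of Glb1, which has 1 copy, and of Psap, the most abundant member, whose window holds none. Each stretch runs from 100 bases before the start to just before the first annotated exon base, with CACGTG in capitals. They lie at chr8:13159061-13159160 (plus strand), chr9:114400978-114401075 (plus strand) and chr10:60277528-60277626 (plus strand) of GRCm38.
Lamp1 promoter: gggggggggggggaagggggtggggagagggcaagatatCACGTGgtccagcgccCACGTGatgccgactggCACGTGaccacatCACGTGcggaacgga
Glb1 promoter: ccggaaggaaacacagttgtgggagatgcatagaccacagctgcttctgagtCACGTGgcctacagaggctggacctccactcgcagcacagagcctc
Psap promoter: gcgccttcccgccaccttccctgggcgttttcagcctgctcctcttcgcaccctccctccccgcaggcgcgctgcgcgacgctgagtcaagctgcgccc
The levels of members with and without the core overlapped. The 13 with it had a median of 30.3 TPM (2.58 to 143) and the 21 without it 26.8 TPM (4.97 to 590.0).

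Some counts may be shared with neighbours, because the strand setting of the counting is not given in the sources used here. Overlap was read from whole gene spans, introns included, and overlap of exons, where reads could be shared, was not examined. By this measure a gene on the opposite strand overlaps 16 members, and for 10 of them that gene has a mean of at least 1 TPM. The share of all genes with such an overlap was not counted. The pairs with the most abundant partners were Ppt1 with Cap1 (121 TPM), Grn with Fam171a2 (43.9 TPM), Ctsa with Pltp (33.5 TPM), Ctsb with Fdft1 (27.9 TPM), Ctsz with Nelfcd (20.1 TPM), Idua with Dgkq (17.7 TPM) and Npc1 with Rmc1 (17.2 TPM). In Ppt1, Grn, Ctsz and Idua the partner was more abundant than the member. On the same strand, Ctsd overlaps the readthrough gene Gm49369, which had a mean of 2.00 TPM, and Glb1 overlaps Tmppe at 4.57 TPM.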

How the data were processed

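Total RNA of 2 hippocampus libraries was analysed from deposited tables. The authors deposited, per the file headers, an RSEM-layout gene table with expected counts, TPM and FPKM, a transcript table that adds the percent of each gene's TPM, and a kallisto-layout transcript table with estimated counts and TPM. Gene models were those of GENCODE M21 on mm10, as text notes deposited with each library name them. For the aligner, program versions and strand, nothing is given in the sources used here.

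All 55536 gene rows matched the annotation. ERCC rows (0.493% and 0.489% of counts) and rows without a gene name were left out of library sizes. Expected counts were rounded and scaled with TMM in edgeR 4.0.16, with DESeq2 1.42.0 size factors as an alternative. With 1 group no replicated test exists: levels are given as mean ± SD, and ratios with exact binomial 95% intervals, which cover counting error only. Log2 ratios used a prior count of 2. The procedure was tested on simulated data. Python 3.11.15 with pandas 2.3.3, numpy 2.4.6 and scipy 1.17.1 was used.

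Members and lists were chosen with earlier results of these data known. Named were the 3 highest members and the lowest of each class, members over 1.2-fold apart, members whose leading isoform differed or took under 50%, and the 3 highest, the lowest and any gene over 1.5-fold apart of each further list. Some genes that this rule names are not reported here. Other genes named (such as Neu1, Aga and M6pr) were picked after their values were seen, to account for members or to show a ratio. Promoters are from RefSeq (GRCm38.p6) and transcript sequences from GENCODE.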

Additional observations from a re-analysis of the deposited data

How the results depend on the processing

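All 39 members were detected under each alternative with a minimum of 1 or 0.1 TPM, and 30 at 10 TPM. None differed over 1.2-fold under any scaling tried, by kallisto-layout counts or by RSEM-layout TPM. Kallisto-layout TPM was not among the settings tried for this. By that unit Sgsh (4.83 TPM and 3.66 TPM), Neu1 (28.3 TPM and 36.1 TPM) and Galc (18.5 TPM and 14.7 TPM) lay over 1.2-fold apart. The number with an interval that left out 1 was 7, or 8 with library totals, which added Galc. The median log2 ratio ran between -0.01 and 0.03. Median levels did depend on the unit and the table. With kallisto-layout TPM the medians were 43.0 for all members, 69.9 for peptidases, 21.7 for glycan-degrading enzymes, 24.3 for lipid genes and 46.9 for membrane proteins. As FPKM they were 17.4, 29.4, 10.3, 9.36 and 21.5. Means in place of medians gave 49.97, 57.1, 31.1, 89.1 and 36.4 TPM. With kallisto-layout counts over length minus 99 bases, an alternative chosen after seeing the data, the median over all members was 44.2 TPM. The number of members with the same leading isoform, 30 when the 2 genes of 1 transcript are included, was 32 to 34 with 1 library left out, 34 by counts, 36 over protein-coding transcripts and 32 with the same added alternative. With 1 library left out the median member level was 22.4 to 25.1 TPM. TCACGTGA was in the windows of 5 members and the 10-letter palindrome in that of 1. No paired analysis was possible because the series holds 1 group.

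Depth limits what can be read from Ctsh, Naglu, Sgsh, Gusb, Cln3, Gla and Idua, the 7 members with under 400 counts in each library. Transcript shares also differed between the tables in members with more counts, such as Ppt1, Ctss and Gaa. With TPM as deposited, the ratio of 30 of the 39 members moved, and 17 were higher in replicate 2 where scaled counts gave 24.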
